A study of Mus musculus with 469 samples.

Results

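The cells described here are the uninjured Neurog1-eGFP cells of mouse olfactory epithelium, set against unsorted epithelium and compared gene by gene. A library was kept when 1000 to 10000 genes had a value of 1 or more, which left 46 of the 61 libraries of the uninjured Neurog1-eGFP sort. The same limits left 129 libraries of the unsorted reference, 59 of run 1 and 70 of run 2. The sorted cells came from FVB mice carrying Neurog1-eGFP and were purified by fluorescence-activated sorting for eGFP. The reference cells came from wild-type B6;129SF1/J F1 mice and were not sorted. Both tissues were uninjured olfactory epithelium at 8 weeks, and every library was made from the polyadenylated RNA of 1 cell on the Fluidigm C1 system. The reporter marks cells by a fluorescent protein that can outlast the activity of the gene that drives it, so a sorted cell need not still hold Neurog1 RNA. The labels named no animal, and each group was therefore 1 sample: no test was possible, no difference has a replicate check, and the values below are descriptions of these libraries. Strain, transgene, sort and capture all differed between the groups and cannot be told apart.

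The olfactory epithelium replaces its sensory neurons throughout life. Globose basal cells give rise to immediate neuronal precursors, which switch on the proneural factors Neurog1 and Neurod1, leave the cell cycle and become immature neurons that grow an axon to the olfactory bulb. Mature sensory neurons carry odorant receptors on cilia and express Omp, the olfactory marker protein. Sustentacular cells span the epithelium beside them and are rich in enzymes that detoxify inhaled compounds.

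The depth of a library was recovered from the step of which most of its values were whole multiples, taken as 1 sequenced fragment. It was 77284 to 1641980 fragments in the sort (median 848317), against 64424 to 1900542 in the reference (median 505626). The median number of genes per cell was 2864.5 in the sort and 2314 in the reference. Levels are given as CPM, on which 10000 is 1% of the total of a cell, and a gene was called found where a cell reached a CPM of 10. Shares of cells carry exact Clopper-Pearson 95% intervals, which cover the counting of cells only. The libraries carried no molecular identifiers that the labels name, so copies of 1 molecule made by PCR may be counted more than once, and such intervals and floors cover counting error only. For a gene found in 0 cells, a limit of 3 counts over the number of cells allows a share of up to 6.52% of 46 and 2.33% of 129 cells, and the exact interval reaches 7.71% and 2.82%. Differences are log2 ratios of mean CPM + 1, sort over reference, so positive values mean higher in the sort. The median ratio of all genes was −0.05.

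Gng8, Ezh2 and Plk4 were named as markers of this sort from the same libraries, so their values are a description and no check of the label. Gng8, the G protein gamma subunit of immature olfactory and vomeronasal neurons, ranged in the sort from a lowest CPM of 0 through a median of 63.7 to a highest of 461.3, against a lowest and median of 0 and a highest of 82.4 in the reference. It was found in 78.3% of sorted cells (63.6 to 89.1) and in 13.2% of reference cells (7.87 to 20.3), with a log2 ratio of 4.27. The groups overlapped, but the lower quartile of the sort (26.1) lay above the upper quartile of the reference (0). Ezh2, the methyltransferase of Polycomb repressive complex 2, had a median of 76.8 and a highest value of 3030 in the sort, against a median of 0 and a highest of 604.6 in the reference, and was found in 56.5% of sorted cells (41.1 to 71.1) and 13.2% of reference cells (7.87 to 20.3). Plk4, the kinase that starts centriole duplication, had a median of 0 in both groups, an upper quartile of 228.6 and a highest value of 3938 in the sort, and an upper quartile of 0 and a highest value of 560.9 in the reference. It was found in 18 of 46 sorted cells (39.1%, 25.1 to 54.6) and in 4 of 129 reference cells (3.10%, 0.851 to 7.75). The level of Plk4 in the sort thus came from a minority of cells. The ratios were alike against either reference run: 3.89 and 4.70 for Gng8, 4.03 and 4.06 for Ezh2, and 5.18 and 5.13 for Plk4, each for run 1 and then run 2.

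**Figure D1:**
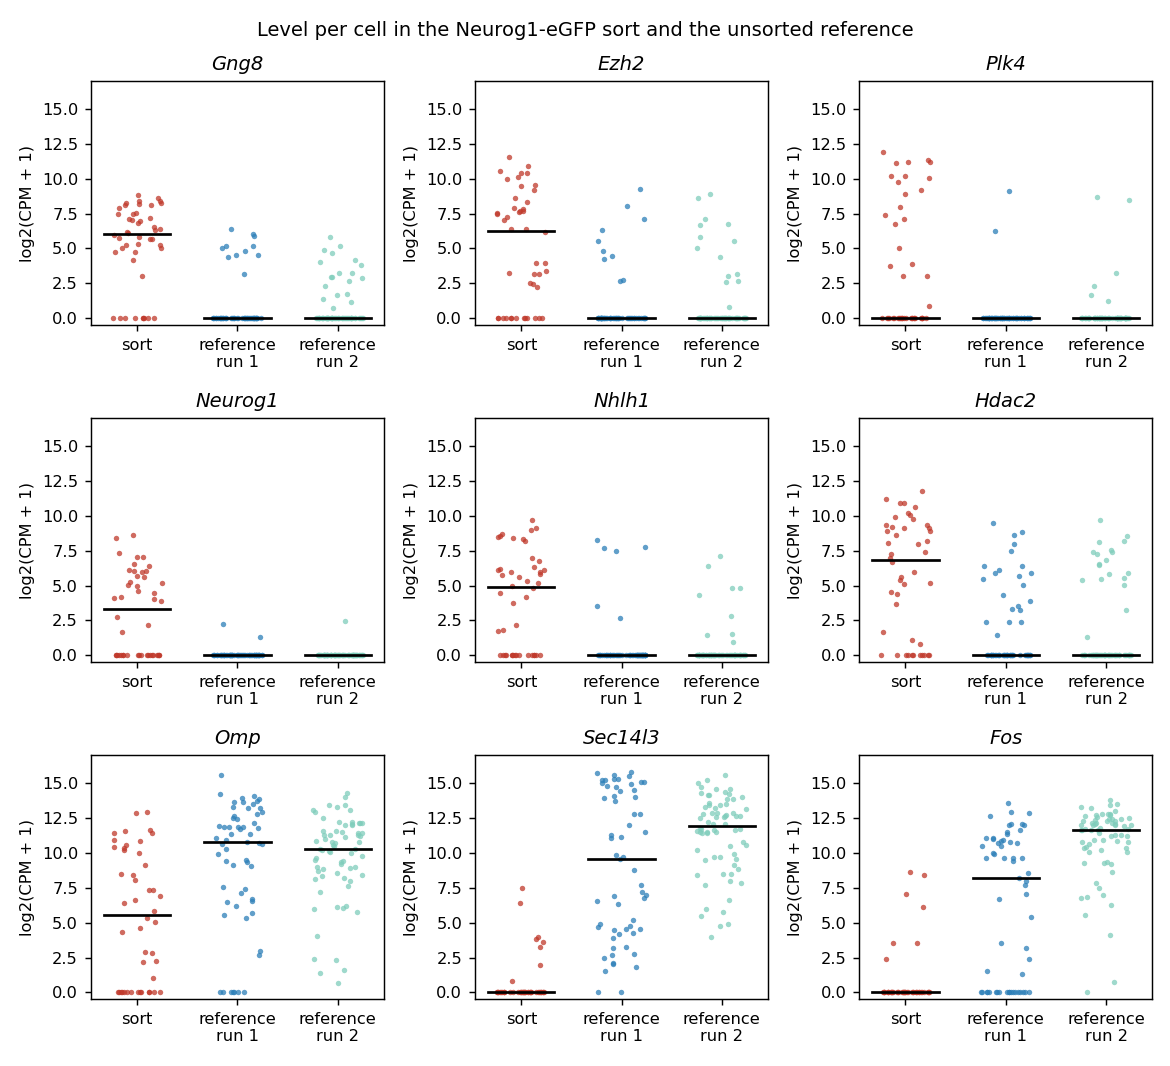
Level per cell, as log2(CPM + 1), of 9 genes in the 46 cells of the Neurog1-eGFP sort, the 59 of reference run 1 and the 70 of reference run 2. Each point is 1 cell and the black line is the median of the group. Gng8, Ezh2, Neurog1, Nhlh1 and Hdac2 have a median above 0 in the sort alone, whereas Sec14l3 and Fos have a median of 0 in the sort and are high in most reference cells.

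The 250 bases before the annotated start of these 3 genes, and of Nhlh1, a basic helix-loop-helix factor of newborn neurons that was also high in the sort, are printed from RefSeq (build GRCm38.p6), since the first 3 mark the sort and Nhlh1 is described with them among the neuronal factors. The deposited values rest on build mm9, per the submitters' processing notes, and the windows were matched by symbol only. Gng8 lies at chr7:16891536-16891785 on the plus strand, Ezh2 at chr6:47595031-47595280 on the minus strand, Plk4 at chr3:40799701-40799950 on the plus strand and Nhlh1 at chr1:172057597-172057846 on the minus strand. Capitals mark CAGATG (or its reverse complement), the E-box form bound by Neurog1 and its relatives, CAGCTG, another E-box form, and CCCNNGGG, the core of the site of the Ebf factors, searched on both strands with no overlap among the matches shown.
Gng8: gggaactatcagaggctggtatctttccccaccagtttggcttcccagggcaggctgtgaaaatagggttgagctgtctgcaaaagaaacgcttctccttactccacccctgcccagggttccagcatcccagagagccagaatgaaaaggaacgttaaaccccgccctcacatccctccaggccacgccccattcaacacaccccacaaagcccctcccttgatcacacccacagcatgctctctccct
Ezh2: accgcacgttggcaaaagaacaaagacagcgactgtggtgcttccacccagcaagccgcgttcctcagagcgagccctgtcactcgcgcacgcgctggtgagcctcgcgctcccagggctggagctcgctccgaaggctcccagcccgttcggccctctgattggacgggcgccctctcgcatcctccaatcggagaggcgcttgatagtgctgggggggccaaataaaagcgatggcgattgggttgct
Plk4: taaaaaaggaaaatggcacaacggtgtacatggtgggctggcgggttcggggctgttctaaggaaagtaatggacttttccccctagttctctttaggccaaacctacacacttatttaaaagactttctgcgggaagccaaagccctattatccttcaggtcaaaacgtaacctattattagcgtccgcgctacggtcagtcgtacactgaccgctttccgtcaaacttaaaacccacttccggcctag
Nhlh1: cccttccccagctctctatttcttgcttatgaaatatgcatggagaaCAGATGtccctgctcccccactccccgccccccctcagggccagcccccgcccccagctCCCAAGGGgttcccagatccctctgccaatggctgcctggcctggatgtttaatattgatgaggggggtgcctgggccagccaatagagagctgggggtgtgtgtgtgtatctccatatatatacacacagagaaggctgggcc
Of the 4, only the Nhlh1 window held any of these letters, CAGATG at position −203 and CCCNNGGG at position −144 from the start site. The Ezh2 and Plk4 windows held 23 and 13 CG pairs, the Gng8 and Nhlh1 windows 4 and 2, beside a median of 6 over all 32851 windows. Among genes that were higher in the sort by the rule for single genes given next, and that had a window, CAGATG was in 10.1%, CAGCTG in 17% and CCCNNGGG in 24.8%. Among the genes that were lower by that rule the shares were 7.3%, 16.1% and 22.6%, among the 7195 genes compared that had a window 11.3%, 13.5% and 17.9%, and among all 27025 genes with a window they were 16.3%, 14.7% and 13.4%. A match is a description of the letters and not evidence of binding.

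In all, 9537 genes averaged at least 10 CPM in the sort or the reference. Of these, 2443 (25.6%) were higher in the sort by 2-fold or more, and 2778 (29.1%) were lower by as much. Of the genes called higher, 71.3% were also at least 2-fold higher against each reference run alone, and 74.8% without the highest cell of each group. For the genes called lower these shares were 58.6% and 91.8%. With the difference of mean log2 levels over cells in place of the ratio of means, genes called higher made up 70.7% of all calls, against 46.8%. A stricter rule for single genes asked that the higher group average at least 50 CPM with the gene found in at least 30% of its cells, that the intervals of the shares not overlap, and that the ratio reach 2-fold in the same direction against each run. The rule left out odorant receptor genes (Olfr), genes with Gm or Rik names, mitochondrial genes and Y-linked genes. Of 2631 genes it named 11% as higher and 180 as lower (6.84%).

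Centriole genes and genes of neurons were among the highest. Of the genes the rule covered, Fam189a1 had the highest ratio (6.43), at a mean CPM of 247.02 against 1.88. In the sort, however, 2 cells held 75.2% of its CPM. Plk4 (5.15) and Cenpj, a scaffold of the growing centriole (4.64, found in 50% against 6.20% of cells), were both among the 5 highest. So were Arpp21, a phosphoprotein regulated by cyclic AMP (4.89, 201.6 against 5.82), and Bach2, a transcriptional repressor (4.83, 192.4 against 5.82). The next were Tagln3, an actin-associated protein of neurons (4.43), Gng8, Slc38a1, a glutamine transporter (4.10), Ezh2 and Arl14epl (3.91). The list closed with Thsd7b (3.86, found in 63.04% against 9.30% of cells), Chn1, a chimaerin that switches off Rac (3.80), Trp53inp1, a target of p53 (3.59), Atp8b4, a member of the lipid flippase family (3.55), and Ncam2, an adhesion molecule of olfactory axons, found in 43.5% against 10.1% of cells.

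The 15 lowest genes were mostly those of support cells. Ugt2a1, a glucuronidating enzyme of the nose, stood at a mean CPM of 1.71 in the sort and 5746 in the reference (−11.05), and was found in 1 of 46 sorted cells. Pon1, a paraoxonase (−10.63), Sec14l3, a lipid-binding protein (−10.27), and the detoxifying enzymes Cyp2f2 (−10.18), Cbr2 (−9.85) and Cyp2g1 (−8.59) were also nearly missing. Rgs5, a regulator of G protein signalling, was at 4.96 against 4410.3, and was found in 67.4% of reference cells. The water channel Aqp4 (−8.66), the transporter Abca13 (−8.95) and the cytoskeletal protein Ermn (−8.63) were found in 0 of 46 sorted cells. No fragment at all was recovered in the sort for Galm, a galactose mutarotase, for the enzyme Fmo6, for Svopl, for the epithelial cadherin Cdh1 or for Clu, a secreted chaperone. Against a floor of 3 fragments over the pooled depth of the sort, Galm was at least 11597-fold lower, Fmo6 at least 6443-fold, Svopl at least 5845-fold, Cdh1 at least 5389-fold and Clu at least 4779.6-fold.

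**Figure D2:**
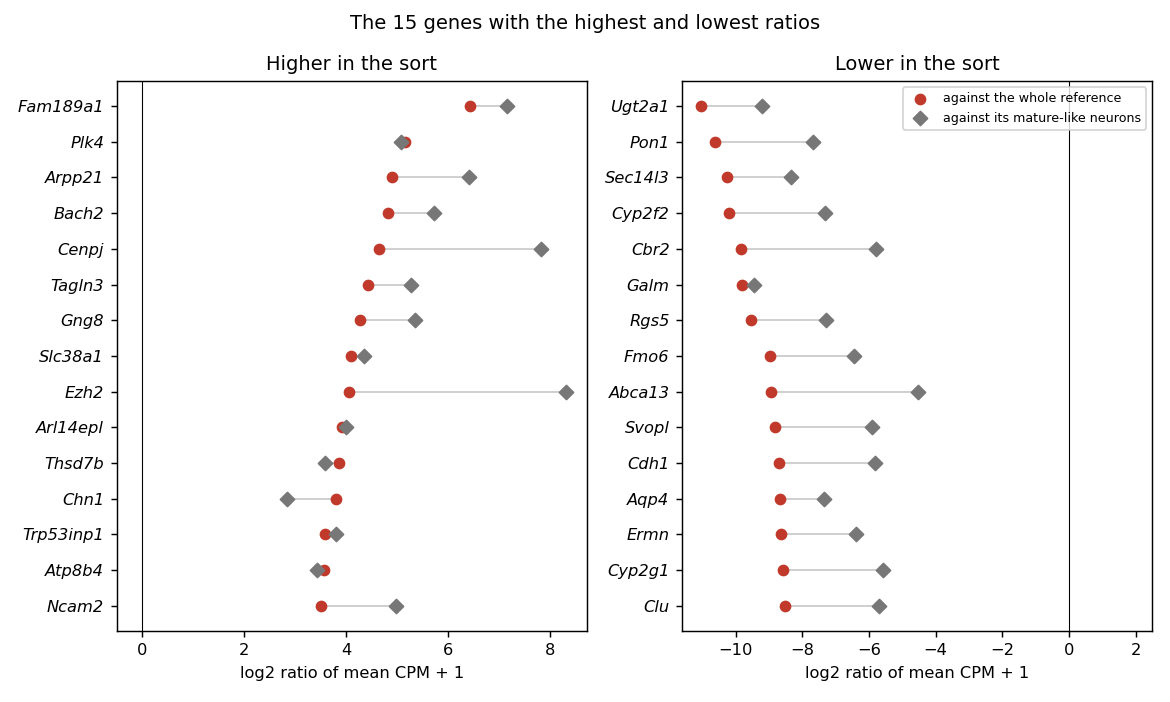
Log2 ratio of mean CPM + 1 for the 15 genes with the highest and the 15 with the lowest ratios by the rule. Circles give the sort against the whole reference and diamonds the sort against the 49 mature-like neurons of the reference. Cenpj and Ezh2 lie farther from 0 against the neurons, and Ugt2a1 and the other enzymes lie closer to it. For genes with no fragment in a group, such as Galm and Clu, the plotted ratio depends on the 1 that is added.

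The genes were then grouped by function in lists, and a member was measured where it averaged at least 5 CPM in the sort or the reference. Over all 10903 such genes, 25.8% were higher by 2-fold or more and 30.5% lower by as much, and the counts below are read against these shares. Where members had no fragment in the sort, the median with those members at the floor is given too if it differs. Gng8, Ezh2 and Plk4, named as markers from these same libraries, are counted in the lists that hold them. The lists were chosen with earlier results of these data known. Some members named below as at least 2-fold higher or lower did not reach 2-fold against 1 or both of the reference runs. Among these were Tcf12, Ezh1, Cbx8, Tet1, Atf5, Ccp110, Tubb2b, Tuba1a, Tuba1b, Kif1a, Snap25, Srsf2, Aldoa, Bcl2l1, Rfx3, Rfx7 and Top2a. Leaving out the highest cell of each group brought some ratios closer to 0, to 1.81 for Lmnb2, 1.91 for Pcgf2, 2.57 for Nfasc, 1.01 for L1cam, 1.09 for Rif1, −1.80 for Bbs1, −2.72 for Cntrob and −2.28 for Tgfbr2, and took others further from it, among them Myt1 (3.88), Bcl11a (−2.32), Elavl2 (3.96), Cntn1 (6.11), Pcdh10 (−4.99), S100a5 (−3.76), Hk2 (−7.07) and Ctsd (−4.31).

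Markers of immature neurons were mostly higher in the sort and markers of mature neurons mostly lower. Of 11 immature neuron markers, 10 were at least 2-fold higher and 0 lower (median 1.90). Besides Gng8 these included Marcksl1, a membrane-bound regulator of actin (3.06, found in 69.6% against 17.8% of cells), and Dpysl5, a collapsin response mediator (2.87). For immediate neuronal precursors, 7 markers were measured, of which 3 were higher and 0 lower (median 0.88). Neurog1 itself had a lowest CPM of 0, a median of 9.86 and a highest of 399.4 in the sort, against a highest of 4.56 in the reference, and was found in 23 of 46 sorted and 0 of 129 reference cells. Insm1, a zinc finger factor of dividing and newborn neuronal precursors, was at 1.87. Neurod1, the factor that follows Neurog1, was found in 23.9% against 2.33% of cells, at a ratio of 0.88, and 2 reference cells held 89.8% of the reference CPM. Without the highest cell of each group for every gene the precursor median was 1.80.

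Markers of mature neurons were lower to unequal degrees. Of 13, 7 were at least 2-fold lower and 0 higher (median −1.35), and of the 14 genes on the list only Cngb1 had no fragment in the sort. Ano2, the calcium-activated chloride channel of the cilium (−2.45), S100a5, a calcium-binding protein (−2.29), and Omp (−2.10) were lowest. S100a5 was found in 19.6% against 94.6% of cells. Slc17a6, the vesicular glutamate transporter, differed least (−0.43), with Pde1c, a phosphodiesterase (−0.46), and Gng13, the G protein gamma subunit of mature neurons (−0.65), close to it. The median was −1.51 against run 1 and −0.56 against run 2, so its size depended on the run.

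Most markers of other cell types were at or near 0 in most sorted cells. Markers of ensheathing glia and of microvillar cells, whose means rested on few cells, are given under the other observations. All 10 sustentacular markers were at least 2-fold lower (median −8.37, and −8.61 with Fmo2, which had no fragment, at the floor). The summed CPM of these markers was 0 to 936 per cell in the sort (median 0), against 26.9 to 145856 in the reference (median 9679). No sorted cell held any fragment of 8 of 9 immune markers, 5 of 6 markers of endothelial cells and pericytes, 4 of 5 erythroid markers, 4 of 6 markers of horizontal basal cells or 3 of 5 of fibroblasts. Among them were Ptprc, Pecam1, Krt5 and Krt14, which define the immune, endothelial and horizontal basal types. None of the endothelial markers was found in a reference cell either, nor were 4 of the 5 erythroid and 2 of the 5 fibroblast markers. For the immune markers, 2 reference cells held 93.3% of the reference CPM, and for the horizontal basal markers 2 reference cells held 64.7%. Sec14l3 was found in 83.7% of the mature-like neurons of the reference as well as in 91.5% of all reference cells, against 10.9% of the sort, and was in every cell of run 2. The share of RNA from support cells within reference neurons was not tested.

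**Figure D3:**
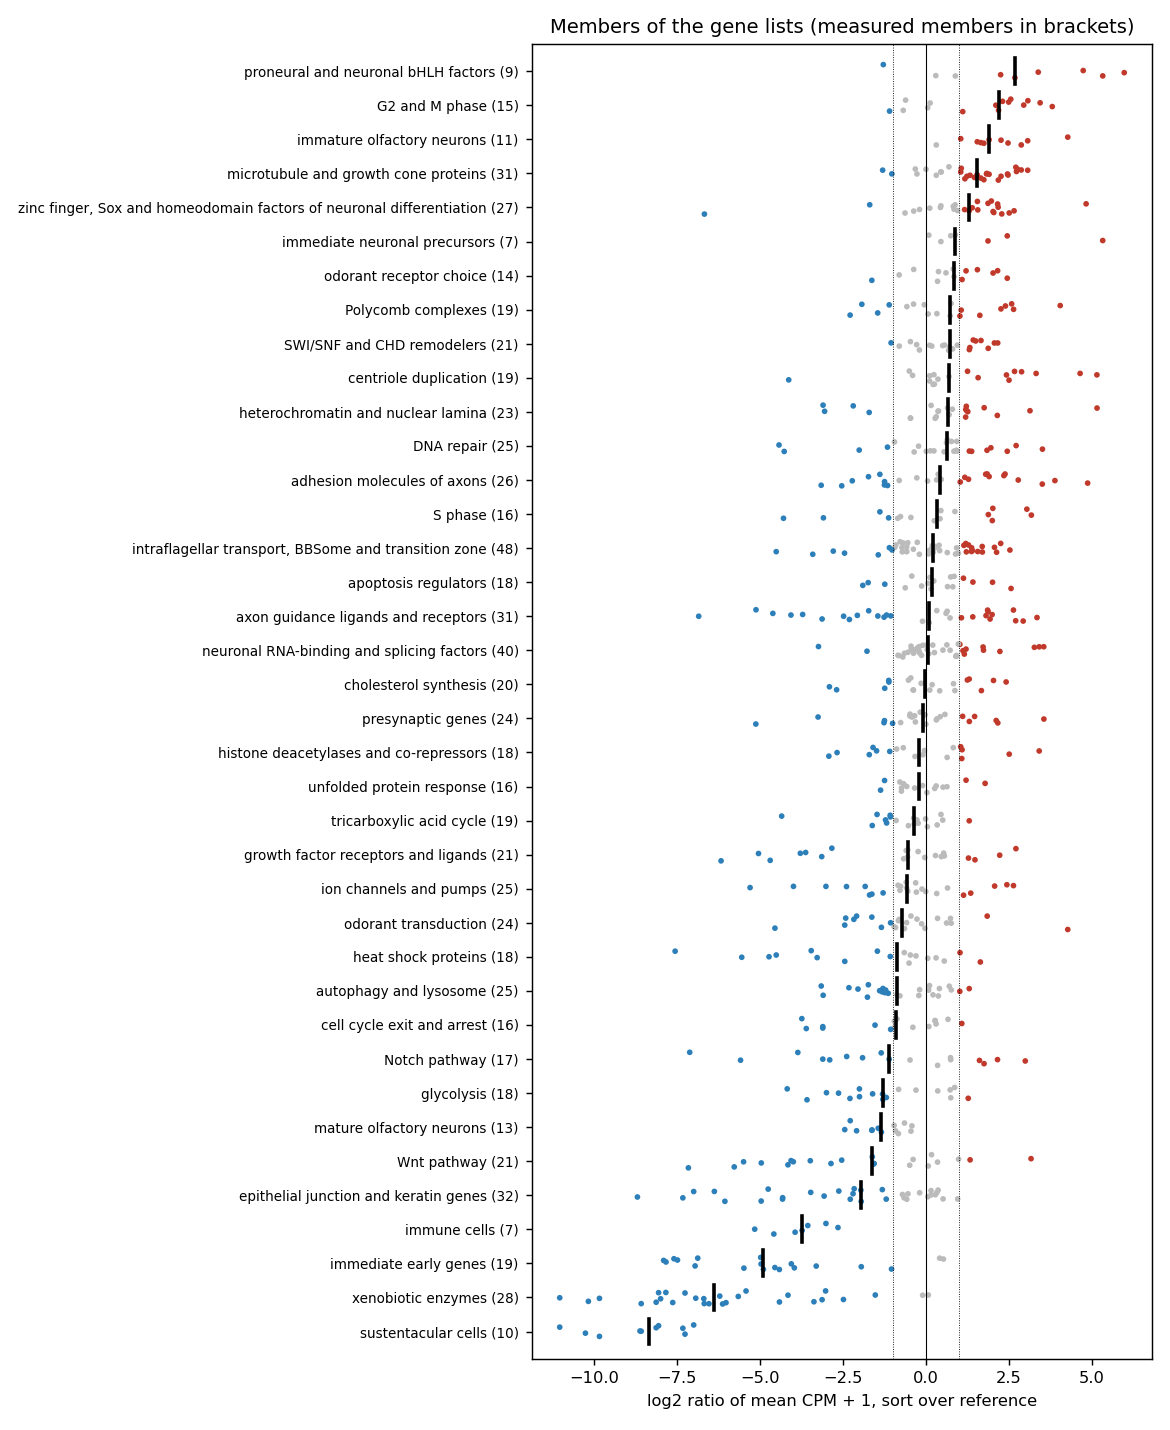
Log2 ratio of mean CPM + 1, sort over reference, for each measured member of 38 gene lists with 7 or more measured members. Each point is a gene, red at 2-fold higher or more and blue at 2-fold lower or more, the black bar is the median of the list and the dotted lines mark 2-fold. Lists of neuronal bHLH factors, of G2 and M phase (which rests on 2 sorted cells), of immature neurons and of microtubule proteins lie highest, and those of sustentacular cells, xenobiotic enzymes and immediate early genes lowest.

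Transcription factors of neuronal differentiation were mostly higher. Of 9 basic helix-loop-helix factors, 6 were at least 2-fold higher and 1 lower (median 2.68). Nhlh1 had a median of 28.2 and a highest value of 846 in the sort, against a median of 0 and a highest of 305.4 in the reference, and was found in 58.7% against 7.75% of cells (3.38). Its relative Nhlh2 was at 2.25, found in 47.8% against 10.9% of cells. The E proteins, which pair with these factors to bind DNA, were divided: Tcf3 was higher (2.68), Tcf4 was at 0.29 and Tcf12 was lower (−1.29). Neurod4 was found in 1 and Neurod6 in 3 of the 46 sorted cells, and neither had a fragment in the reference.

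Of 27 other factors of neuronal differentiation, including zinc finger, Sox and homeodomain factors, 15 were at least 2-fold higher and 2 lower (median 1.30). Bach2 was followed by Myt1, a zinc finger factor of neurogenesis (2.65), Rcor1, the co-repressor that works with the neuronal silencer REST (2.51), and Bcl11b (2.28, 445.99 against 90.9). Bcl11a, the close relative of Bcl11b, went the other way (−1.70, 85.2 against 278.9). Lhx2, a homeodomain factor needed for sensory neurons, and Emx2 were found in 95.7% and 76.1% of sorted cells, against 53.5% and 31.01% of reference cells. Myt1l was found in 91.3% against 51.2%. The Ebf factors of olfactory neurons formed a gradient, with Ebf2 highest (1.55), Ebf1 and Ebf3 at 0.84 and 0.82, and Ebf4 at −0.37. Nfia and Nfib, of the nuclear factor I family, were at 2.17 and 1.16. Runx1 was nearly missing, at 0.0501 against 107.1, and Sox2, a factor of stem and support cells, was found in 4.35% against 26.4% of cells.

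Chromatin regulators were divided by family and within families. Of 19 Polycomb genes, 8 were at least 2-fold higher and 4 lower (median 0.73). In repressive complex 2, Ezh2, Suz12 (2.39) and the accessory factor Mtf2 (2.26, found in 73.9% against 24.03% of cells) were higher. Eed, the third core subunit, was at −0.38, and Ezh1, the alternative methyltransferase, at 1.02. In repressive complex 1, Cbx2 (2.64) and Pcgf2 (2.58) were higher while Cbx8 (−2.29) was lower, and Bmi1 and Rnf2 were at −0.05 and 0.06. Against run 2 alone the median of the list was 0.38.

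Of 18 histone deacetylases and co-repressors, 5 were higher and 6 lower (median −0.22), near the shares over all genes. Hdac2 had a median CPM of 113.1 and a highest of 3583 in the sort, against a median of 0 and a highest of 825 in the reference (3.41). Hdac1, which shares complexes with Hdac2, was at 3.69 against 34.8 (−2.93), found in 10.9% against 24.8% of cells. The paralogs thus differed in opposite directions. Of 21 SWI/SNF and CHD remodelers, 8 were higher and 1 lower (median 0.71), among them Smarce1 (2.16), the NuRD helicase Chd4 (2.06), Bcl7a (1.87, found in 97.8% against 52.7% of cells) and Actl6a, the actin-like subunit of progenitors (1.66). Of 23 genes of heterochromatin and the nuclear lamina, 9 were higher and 4 lower (median 0.65). Among these, Lmnb2 was at 3.13 and Lmna, the A-type lamin, at −3.06. The methyltransferase Suv420h2 was higher (2.15), and Cbx5, a heterochromatin protein, was lower (−1.72). Of 3 enzymes that oxidise 5-methylcytosine, Tet1 was higher (1.23), Tet3 was at 0.36 and Tet2 was lower (−3.11).

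Olfactory precursors make many centrioles for the cilia of the neuron they become. Of 19 centriole genes, 9 were at least 2-fold higher, 1 was lower and 9 were within 2-fold. The median was 0.69, at 2.11 against run 1 and 0.89 against run 2. After Plk4 and Cenpj came Cep120 (3.32, found in 47.8% against 11.6% of cells), Stil (2.88, 34.8% against 3.10%), Sass6, the cartwheel protein (2.67), and Cep97 (2.50). Ccp110, which caps centrioles, was at 1.25. Cetn2, a centrin, and Pcm1, the scaffold of centriolar satellites, were at 0.11 and 0.10, and Cntrob was lower (−4.14).

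Genes of G2 and M phase rested on few cells. Of 15 genes of G2 and M phase, 10 were at least 2-fold higher and 1 lower (median 2.18), and 98.9% of what the sort held of these genes lay in 2 of its 46 cells. Without the highest cell of each group for every gene, 1 of these 10 remained at least 2-fold higher. Cenpf, a kinetochore protein, was found in 2 sorted cells and Top2a in 1. Of 16 S phase genes, 5 were higher and 4 lower (median 0.33), with the helicase subunit Mcm7 found in 26.1% against 5.43% of cells. A list of 16 genes of cell cycle exit and arrest also held the D-type cyclins, which drive entry into the cycle. Of the 16, 1 was higher and 6 lower (median −0.92): 3 of the 6 were the cyclins, with Ccnd1 at −1.54, and the others were Gadd45b, Rbl2 and Btg2, an anti-proliferative early response gene (−3.75). Of 25 DNA repair genes, 7 were higher and 4 lower (median 0.64). Tex15, a gene best known from meiosis that also marks olfactory precursors, was at 5946 against 1089, and Rif1 and Palb2 were at 1.95 and 2.71.

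Genes of the growing axon were mostly higher. Of 31 microtubule and growth cone genes, 22 were at least 2-fold higher and 2 lower (median 1.54), and 17 of the 22 kept the call against each run and without the highest cell. The tubulins Tubb3, Tuba1a and Tubb2b were at 1.74, 1.33 and 1.46, whereas Tuba1b was at −1.03. Marcks was at 6186 against 1366 CPM, the collapsin response mediators Dpysl2 and Dpysl3 at 1.83 and 1.90, and the microtubule destabiliser Stmn2 at 2.26. Stmn2 had a median of 1339 in the sort and 14.3 in the reference. The kinesin Kif5c was at 2.73 and Map2 at 2.71, while the synaptic vesicle motor Kif1a was lower (−1.31). Mapt, another microtubule-associated protein, was at −0.28. On the FPKM scale, which allows for gene length, Tuba1a averaged 3669.7 in the sort and 1573 in the reference, and Marcks 1477 in the sort and 332.2 in the reference, which placed both among the 12 highest genes of the sort.

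Guidance and adhesion genes were divided. Of 31 axon guidance genes, 11 were at least 2-fold higher and 14 lower (median 0.09). The semaphorin receptors Nrp2 (3.34) and Nrp1 (1.85), the slit receptor Robo2 (1.81), the chemokine receptor Cxcr4 (2.70) and the ligand Sema3a (1.99) were higher. Plexins that pair with neuropilins were lower, with Plxna3 at −2.07 and Plxna4 at −2.31, as were Epha5 (−5.13), Unc5b (−3.14) and Efnb2 (−6.86). Without the highest cell of each group, Robo2 was at 0.99, just under the 2-fold mark. Of 26 adhesion molecules, 12 were higher and 8 lower (median 0.41). Ncam2 (318.6 against 27.2 CPM), Nfasc (3.88), Cntn1 (4.87, found in 17.4% against 0.775% of cells) and L1cam (1.80) were higher. Kirrel2 and Kirrel3, whose levels follow odorant-driven activity and help sort axons, were lower (−2.54 and −2.23), as was the protocadherin Pcdh10 (−3.16).

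The counts of presynaptic and channel genes were near the shares over all genes. Of 24 presynaptic genes, 6 were higher and 5 lower (median −0.10): Pclo, a large scaffold of the active zone, was found in 97.8% against 62.02% of cells (2.11) and Stx1a was at 2.16, whereas Snap25 was at −1.27 and Syn2 at −5.13. Of 25 ion channels and pumps, 5 were higher and 8 lower (median −0.59), among them the calcium channel subunit Cacna2d1 (2.07) on the higher side and Kcnk2 (−5.31) and Cacna1h (−1.63) on the lower. Of 40 RNA-binding and splicing factors, 10 were higher, near the 25.8% over all genes, and 2 lower (median 0.06). Among the higher ones, Elavl2 and Elavl4 were at 3.26 and 2.23, Celf3 at 1.72 and Celf1 at 1.73. The general factors Srsf1 and Hnrnpk were at 0.20 and −0.10, and Srsf2 was lower (−1.78).

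Odorant signalling genes were mostly lower or within 2-fold. Of 24, 2 were at least 2-fold higher, Gng8 and the regulator Rgs2 (1.84), and 8 lower, the latter near the 30.5% over all genes. The median was −0.73, at −0.99 against run 1 and −0.21 against run 2. Adcy3, the adenylyl cyclase, was at −1.64, Gnb1, the G protein beta subunit, at 2494 against 11289 CPM (−2.18), and Gnal, the olfactory G protein alpha subunit, at −0.96. The stimulatory alpha subunit Gnas, which precedes Gnal in development, was at 0.62. Of the gamma subunits of immature and mature neurons, Gng8 averaged 115.3 in the sort and 5.02 in the reference. Gng13 averaged 205.1 in the sort and 322.9 in the reference, within 2-fold. The direction for Gng13 depended on the run, since it averaged 516.4 in run 1 and 159.8 in run 2. Of 48 genes of ciliary transport and the transition zone, 14 were higher and 7 lower (median 0.20), with Ift74 at 1.56 and Bbs1 at −2.46.

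Odorant receptor RNA was present in most sorted cells, at lower levels. At a CPM of 50 or more, at least 1 of 1116 receptor entries was found in 38 of 46 sorted cells (82.6%, 68.6 to 92.2) and in 89.9% of 129 reference cells (83.4 to 94.5). The highest receptor of a cell had a median CPM of 586 in the sort (quartiles 136.6 and 4087) and 1788 in the reference (quartiles 439.3 and 4924). It reached 1000 in 43.5% of sorted and 59.7% of reference cells. These reference values include support cells. In the 49 mature-like neurons of the reference, the highest receptor had a median CPM of 4467 and reached 1000 in 81.6% of cells. The intervals of the shares with any receptor overlap. Receptors with near-identical copies can share reads, so counts of receptors per cell are uncertain. Of 14 genes linked to receptor choice, 6 were higher and 1 lower (median 0.83), among them Ldb1, which joins receptor enhancers with Lhx2 (2.45), and Atf5, which signals that a receptor is made (1.21). The chaperones of receptors Rtp1 and Rtp2 were at 0.34 and −0.81. Of 16 genes of the unfolded protein response, 2 were higher and 2 lower (median −0.23).

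Notch and Wnt pathway genes were more often lower than higher. Of 17 Notch pathway genes, 9 were at least 2-fold lower and 4 higher. The median was −1.11, but −0.65 against run 1 and −0.22 against run 2, short of the 2-fold mark in each. The receptor Notch2 (0.488 against 207.2 CPM), the ligand Jag1 (−2.91) and the effector Hey1 (−3.11) were lower. Numbl was found in 12 sorted and 0 reference cells, whereas its paralog Numb was lower (−2.39). Of 21 Wnt pathway genes, 13 were lower and 2 higher (median −1.62), with Tcf7l2, a nuclear effector, at 2.37 against 184.7 and Sfrp1, a secreted inhibitor, with no cell in the sort at a CPM of 10. Gsk3b and Ctnnb1, which every cell uses, were at 0.07 and −0.39. Of 21 growth factor receptors and ligands, 7 were lower and 4 higher (median −0.55), and the 2 receptor chains of TGF-beta parted: Tgfbr1 was found in 80.4% against 30.2% of cells (2.22) and Tgfbr2 was lower (−3.63).

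Glycolysis genes were mostly lower, and other metabolic genes were divided. Of 18 glycolysis genes, 11 were at least 2-fold lower and 1 higher, and 7 of the 11 kept the call against each run. The median was −1.31, at −1.83 against run 1 and −0.66 against run 2. Aldoa was at 238.6 against 732 CPM and Hk2 at −3.59, while Ldhb was at 0.73. Of 19 genes of the tricarboxylic acid cycle, 7 were lower and 1 higher (median −0.38, and 0.21 against run 2). Of 25 autophagy and lysosome genes, 12 were lower and 2 higher (median −0.88, and 0.02 against run 2), among them the lysosomal membrane protein Lamp1 (−3.10) and the proteases Ctsd (−3.16) and Ctsb (−2.05). Of 20 cholesterol genes, 5 were higher and 5 lower (median −0.02), near the shares over all genes, with the regulator Insig1 at −2.70. Of 18 apoptosis regulators, 4 were higher and 3 lower (median 0.19): Bcl2l1 was at 1.13 and Bcl2 at −1.75.

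Genes of support cells and of acute stimulation were mostly lower. Of 28 xenobiotic enzymes, 26 were at least 2-fold lower and 0 higher (median −6.39, and −6.62 with members at 0 set to the floor). Sult1d1, a sulfotransferase, was one of the other two, at 978 against 1050 CPM and found in 80.4% against 85.3% of cells. Of 32 epithelial junction and keratin genes, 19 were lower and 0 higher (median −1.96), but Epcam, an adhesion protein of epithelia, was found in 76.1% of sorted and 65.9% of reference cells (0.05). Of 19 immediate early genes, which cells switch on within minutes of a stimulus, 17 were lower and 0 higher (median −4.91, and −6.89 at the floor), and all 17 kept the call against each run. Fos had a median of 0 and a highest value of 403.4 in the sort, against a median of 1721 and a highest of 14062 in the reference. Jun, which was found in 80.4% of sorted and 83.7% of reference cells, was closer (−1.04). Of 18 heat shock genes, 9 were lower and 2 higher (median −0.87), with Hspa8 at −2.45 and Hspa1b at −7.57. Sorting and its handling cannot be told apart from the groups.

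Sex-linked genes also differed. At least 1 of the 4 Y-linked genes Ddx3y, Eif2s3y, Kdm5d and Uty was found in 29 of 46 sorted cells and 0 of 129 reference cells. Xist, the RNA of the inactive X chromosome, was found in 9 sorted cells and 81 reference cells, and 4 sorted cells held both kinds. The labels give no sex, and the sex of the animals cannot be told apart from the sort.

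The sort was also compared with the neurons of the reference, because the whole reference is a mixture of cell types. Clustering of the cells of both groups together gave 8 clusters, of which 2 were like mature neurons and held 49 reference cells and 9 sorted cells. A cluster like precursors held 22 sorted and 5 reference cells, 1 like immature neurons held 14 sorted and 4 reference cells, and 1 like sustentacular cells held 0 sorted and 18 reference cells. The 3 unnamed clusters held 1 sorted cell and 53 reference cells. One of the mature-like clusters was shallow, with a median depth at 0.48 of that of its cells' own group. Against these 49 neurons, 37.8% of 10082 genes were higher in the sort by 2-fold or more and 26.5% lower by as much, with a median of 0.33. This comparison shares its sorted cells, and these 49 cells, with the one above, so the values of both are given side by side.

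The rule for single genes, without the condition on runs, named 17.2% of 2442 genes as higher and 79 as lower (3.24%). Among the 10 with the highest ratios of mean CPM + 1, Ezh2 (8.31) was found in 0 of 49 reference neurons and averaged 0.109 CPM there, so that the 1 that is added sets much of its ratio and of the order. Cenpj, with no fragment in these neurons, was at least 1715-fold higher and Rbm24, an RNA-binding protein, at least 928-fold higher. Crabp1, which binds retinoic acid, averaged 525 in the sort and 1.59 in the neurons (7.67), beside 77.3 in the whole reference. Stil (6.78), Nhlh1 (6.63), Epb4.1, a membrane skeleton protein (6.64), and Rimklb (6.30) followed, with Fam189a1 and Arpp21. Rimklb is the 1 of these 10 that did not differ 2-fold from the whole reference (0.67). The clusters that gave the 49 neurons were named from mature neuron markers, so the values of marker lists against them describe the choice and support nothing. All 7 precursor markers were at least 2-fold higher than in the neurons (median 2.94), 12 of 13 mature markers lower (median −2.18), and 9 of 11 immature markers higher (median 1.84).

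The lower side against the neurons still held support cell genes. Ugt2a1 (−9.21), Sec14l3 (−8.33), Pon1, Cyp2f2, Rgs5 and Ugt2a2 were 6 of the 10 lowest, and all 10 sustentacular markers were at least 2-fold lower (median −5.78). The neurons include 1 cell of run 1 with 44339 CPM of Ugt2a1 and 48451 CPM of Sec14l3. Without it the ratios were −8.04 for Ugt2a1, −7.63 for Sec14l3 and −6.51 for Pon1, against −7.67 with it, and the sustentacular median was −5.72. The neuronal genes among the 10 were Epha5, an ephrin receptor of axons (1.42 against 203.3 CPM, −6.40), and Dynlt1b, a dynein light chain with no fragment in the sort, at least 1406-fold lower. Genes with near-identical copies, as Dynlt1b and Tmem181b-ps have, can lose or gain reads by the way copies are counted. Fos was lower against the neurons as well (−6.08), and 13 of 17 immediate early genes were at least 2-fold lower (median −3.42). The medians of some lists were near 0 or above it here: Notch pathway genes had 7 higher and 7 lower members against the neurons (median 0.85), Wnt genes 2 higher and 6 lower (median −0.26), and epithelial junction genes 6 higher and 8 lower (median −0.21). Polycomb genes had 11 higher and 0 lower members (median 1.31), and SWI/SNF and CHD remodelers 14 and 0 (median 1.36). Of 24 odorant signalling genes 4 were higher and 15 lower (median −1.57), and of 47 ciliary transport genes 9 were higher and 16 lower (median −0.21).

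The sorted cells differed among themselves along the axis of maturation. Of the 5 stage genes Neurog1, Neurod1, Gap43, Gng8 and Omp, every one of the 46 cells held at least 1. Neurog1 or Neurod1 was found in 27 cells, Gap43 or Gng8 in 41, and Omp in 27, with 4 cells that held Omp and none of the other 4. The most common sets were Gap43, Gng8 and Omp together (8 cells) and Neurog1, Neurod1 and Gng8 together (7 cells). Of the 23 cells with Neurog1, 22 also held Gng8 and 8 held Omp, whereas of the 23 without Neurog1, 14 held Gng8 and 19 held Omp. In the 8 cells with both Neurog1 and Omp, Omp was low in 7 (19.01 to 163.3 CPM) and stood at 1925 CPM in the other. Omp was also found in 89.1% of reference cells, and the part of free RNA or of doublets in these cells was not tested.

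Across the 46 cells, the Spearman correlation was 0.41 between Neurog1 and Gng8, −0.27 between Neurog1 and Gap43, −0.51 between Neurog1 and Omp and −0.34 between Gng8 and Omp. These are descriptions over cells of 1 group that share a sort and a common total. Among 2681 genes found in 30% or more of sorted cells, the genes most like Gng8 were Actb (0.725), Dpysl3 (0.71), Ftl1 (0.71), Epb4.1 (0.68) and Bcl2l1 (0.68). Those most like Neurog1 were Gm5643 (0.73), Baz1a, a chromatin remodeler subunit (0.73), Smchd1, a chromatin protein of X inactivation and imprinting (0.695), Nras (0.66) and Mex3a (0.66). The number of genes per cell correlated with Gng8 at −0.07 and with Neurog1 at −0.02. Smchd1 had a median CPM of 727 in the sort and 0 in the reference and was found in 73.9% against 28.7% of cells.

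**Figure D4:**
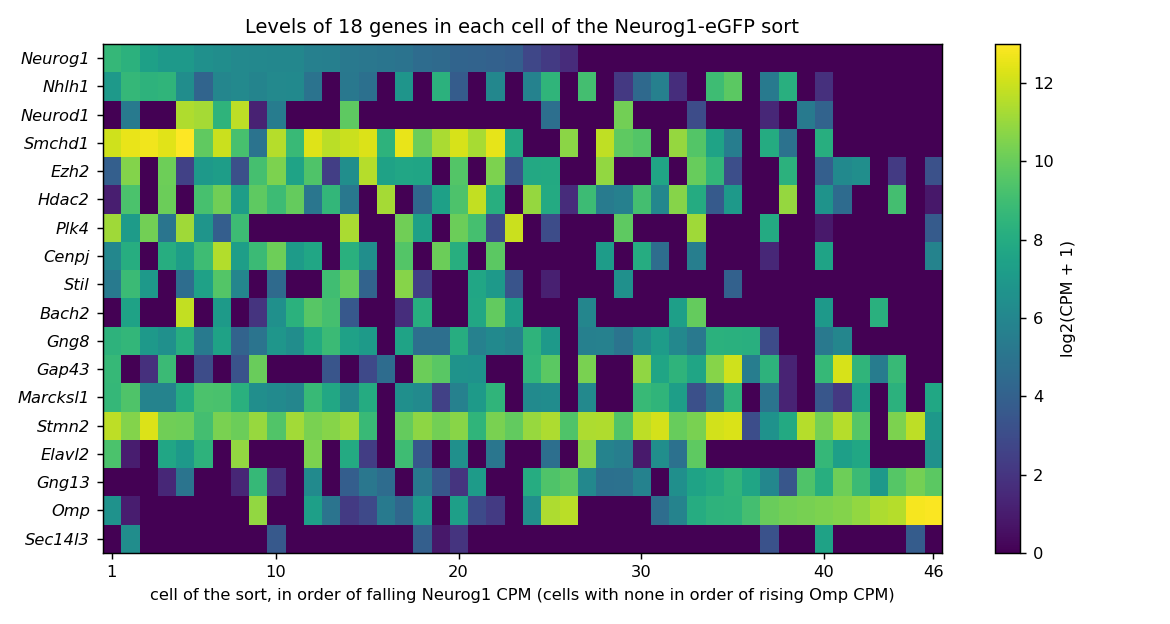
Log2(CPM + 1) of 18 genes in each of the 46 cells of the Neurog1-eGFP sort, in order of falling Neurog1 level, with the cells that have none in order of rising Omp level. Each column is 1 cell and each row 1 gene. Smchd1 and the centriole genes lie mostly with the Neurog1 cells on the left, Omp and Gng13 mostly on the right, Gng8 and Stmn2 span most cells, and Sec14l3 is absent from nearly all.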

How the data were processed

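The files held 1 library per cell, made from polyadenylated RNA on the Fluidigm C1 system with Nextera XT, per the labels' protocols. The submitters' processing notes name FastQC, STAR 2.5.2a, Cufflinks 2.2.1 and Cuffnorm, and the build mm9. The authors deposited a signal table of gene counts divided by a library factor, and a table of FPKM. The first was not whole, so counts were not assumed. Its values were treated as counts divided by a library factor. The step of which most values of a library were whole multiples was taken as 1 fragment. A median of 98.3% of values in the sort and 98.7% in the reference came out whole. Values too small to round to 1 fragment were left out of these shares. The values were scaled to CPM of each column's sum. Of 23308 entries, 27 were gene names turned into dates and were removed, leaving 23281, and 0 columns could not be mapped to a sample.

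Libraries outside 1000 to 10000 genes were left out, which kept 319 of the 469 libraries of the series and, of the groups used here, 46 of 61 sorted and 129 of 192 reference libraries. Those left out of these groups were 15 sorted and 54 reference libraries with fewer genes (the highest had 995 in the sort and 998 in the reference, the lowest kept 1020 and 1018) and 9 reference libraries with more. Each group is 1 sample, since the labels name no animal, and 0 pairs of libraries held identical values. A difference is the log2 ratio of mean CPM + 1, called at 2-fold, over genes that averaged at least 10 CPM in a group (5 for lists). A gene with no fragment was set against a floor of 3 fragments over the group's depth. The named genes were the 15 highest and 15 lowest by the rule in the report, which named 289 genes as higher, and the 10 highest and lowest against the reference neurons. The 48 lists (13 of cell type markers, 35 of processes) hold 922 genes, of which 921 were in the table. The members and lists were chosen with earlier results of these data known, and the reference neurons were chosen after the data were seen.

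Cells were clustered on log levels and a cluster was named from its markers. Doublets were not called, and the limit of 10000 genes was the only upper limit. Alternatives changed the scaling, the filter, the average, the run, the single highest cell, the found threshold, the depth and the reference cells. The steps were tested on simulated data. Python 3.11.15, numpy 2.4.6, pandas 2.3.3, scipy 1.17.1, scikit-learn 1.9.0 and matplotlib 3.10.9 were used.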

Additional observations from a re-analysis of the deposited data

Results flagged for a closer look

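The 9 reference libraries with more than 10000 genes (12256 to 16307), which the limits left out, held genes that were found in no kept reference library. Neurog1 was found in 6 of these 9 libraries, against 0 of the 129 kept reference libraries. At least 1 of the 4 Y-linked genes was also found in 6 of the 9, against 0 of 129. Both results stand out because they appear in data that the main comparison left out. These libraries entered only an alternative that added them to the reference. Ezh2, Plk4, Omp and Sec14l3 were found in all 9, and Gng8 in 7. Whether each of these libraries held 1 cell was not tested.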

How the results depend on the processing

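For 6 main results (the counts of higher and lower genes and 4 list medians), of the alternatives computed 89 kept the result, 4 moved it, 7 put it past the 2-fold mark, 2 put it short of the mark, and 0 reversed it. Genes lower in the sort numbered 4224 with no filter, 1178 at a CPM of 50 or more and 708 with the difference of mean log2 levels over cells. Genes higher in the sort numbered 1232 at a CPM of 50 or more. The precursor median, 0.88 in the report, was 1.37 at a CPM of 50 or more, 2.21 with mean log2 levels, 1.80 without the highest cell, 2.12 against run 1 alone, 1.11 against run 2 alone, 1.43 without the clusters high in sustentacular genes, and 1.09 with only the precursor-like and immature-like clusters of the sort, an alternative chosen after seeing the data. It was lower in others, 0.545 with libraries of 2000 to 10000 genes, 0.69 with pooled fragments and 0.77 with size factors. The mature median was −0.89 with pooled fragments and −0.56 against run 2 alone. The median of all genes was −0.15 with size factors, 0.18 with mean log2 levels, 0.24 against run 2 and −0.25 without the highest cell. Of the alternative shares of cells with a named gene, 8 moved out of their interval and 0 reversed, among them Ezh2, which was found in 71.7% of sorted and 17.8% of reference cells at a CPM of 1, and Gng8, in 58.7% and 3.10% at a CPM of 50. Thinning to equal depth kept 45 of 46 sorted cells and all but 2 of 129 reference cells. No paired analysis was possible because the replicate numbers of the labels name single cells, and no result comes from a test. Depth limits what a missing gene means, since 1 cell gives few fragments of a gene that is low.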

Other observations

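Smaller lists were not described above. Of 5 measured markers of globose basal cells, 3 were at least 2-fold higher in the sort and 1 lower (median 2.70). The 3 were Cxcr4, Ezh2 and Plk4, of which Ezh2 and Plk4 were named as markers of this sort from the same libraries, and the lower one was Top2a, a topoisomerase of dividing cells, found in 1 sorted cell. Of 6 Rfx factors, which control genes of cilia, 2 were higher, Rfx7 (1.34) and Rfx3 (1.13), and 0 lower, but neither reached 2-fold against each run, and Rfx7 was at 0.28 without the highest cell of each group. Of 6 markers of microvillar cells, 3 were lower and 0 higher, and Trpm5, a channel of chemosensory cells, and Foxi1, a factor of ion-transporting cells, had no fragment in the sort. The summed CPM of these markers averaged 1433 in the sort and 1662 in the reference, most of it Coch, and 2 sorted cells held 97.1% of the sum in the sort. All 3 of these markers that were measured against the reference neurons were higher in the sort (median 3.78). Of 5 markers of Bowman glands, 4 were lower and 0 higher.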
